A study of Mus musculus with 6 samples.

Results

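The 10 genes described here present antigen on MHC class II: H2-Aa, H2-Ab1, H2-Eb1, H2-DMa, H2-DMb1, H2-DMb2, Cd74, Ciita, Cd80 and Cd86. They were taken by name from the array design, which held all 10 with 13 probes, among 34964 genes and 55681 probes. RNA was measured on 6 two-colour arrays, with the sample in Cy5 and universal mouse reference RNA, pooled from mouse cell lines, in Cy3, and the dyes were not swapped. The macrophage arrays held F4/80+ cells from mammary glands of virgin females, 2 from Dll1-conditional knockouts (strain C57/B6:cKO-Dll1, here KO) and 2 from wild type littermates (C57/B6, here WT). The other 2 arrays held CD24+ CD29-high cells of virgin Dll1-mCherry reporter females (C57/B6:Dll1-mCherry), which the labels call mammary stem cells, sorted into a Dll1-high (mCherry+) and a Dll1-low (mCherry-) fraction with 1 array each. The labels do not give the promoter or cell type that drives the deletion, the age of the mice, or whether replicates were separate animals, so a p-value measures only the spread between these samples.

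Class II molecules are pairs of an alpha and a beta chain that carry peptides from endosomes to the cell surface, where CD4+ T cells read them. Macrophages, dendritic cells and B cells express them constitutively or after interferon gamma, and most epithelial cells make little until induced. In the mouse the pairs are I-A and I-E, the invariant chain guards the groove on the way to the endosome, and H2-DM loads the peptide. C57BL/6 mice make no I-E, because the gene of its alpha chain is defective, although the beta chain gene is transcribed.

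All values are log2 ratios of sample over reference unless a signal is named, and a value of 1 is a doubling over the reference RNA. Dll1 itself read 3.94 in the Dll1-high and 3.26 in the Dll1-low cells, 0.80 and 2.25 on the KO arrays and 0.78 and 3.24 on the WT arrays, and the macrophage genotypes overlapped (KO minus WT -0.49, SE 1.03, limma adjusted p 0.999). Whether its probe lies in the deleted part of the gene is not stated in the labels. Cy5 was well above background, as the scanner software defines it, for 86.0% and 88.1% of spots on the CD24+ CD29-high arrays and for 47.4% to 71.9% on the macrophage arrays. Both cell types lay on slides of their own, and slide and cell type cannot be told apart. On the macrophage slide the replicate 1 arrays of both genotypes shared a row, and the replicate 2 arrays shared the other. Both KO arrays shared a column, and both WT arrays shared the other. Slide row thus cannot be told apart from replicate number, nor slide column from genotype. WT replicate 1 stood apart for many of the genes below, and the fitted differences of the members and of the listed genes named beside them are given with and without it.

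The class II genes read far above the reference RNA in the F4/80+ cells and lower on the CD24+ CD29-high arrays, and none of the 10 passed the test between genotypes. In 8 of the 9 members measured on every array, all 4 macrophage arrays lay above both CD24+ CD29-high arrays, which held for 21.6% of the 24749 genes compared. In 6 of the 9 the gap was at least 2-fold, against 4.37% of genes: H2-Aa, H2-Ab1, H2-Eb1, H2-DMb1, Cd74 and Cd86. The median difference between the macrophage mean and the CD24+ CD29-high mean was 2.60 over the members and 0.08 over all genes. With the Cy5 channel alone, 8 of the 9 again lay higher on every macrophage array, against 17.9% of genes. This is a description of 6 arrays, and no test was made of it.

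**Figure D1:**
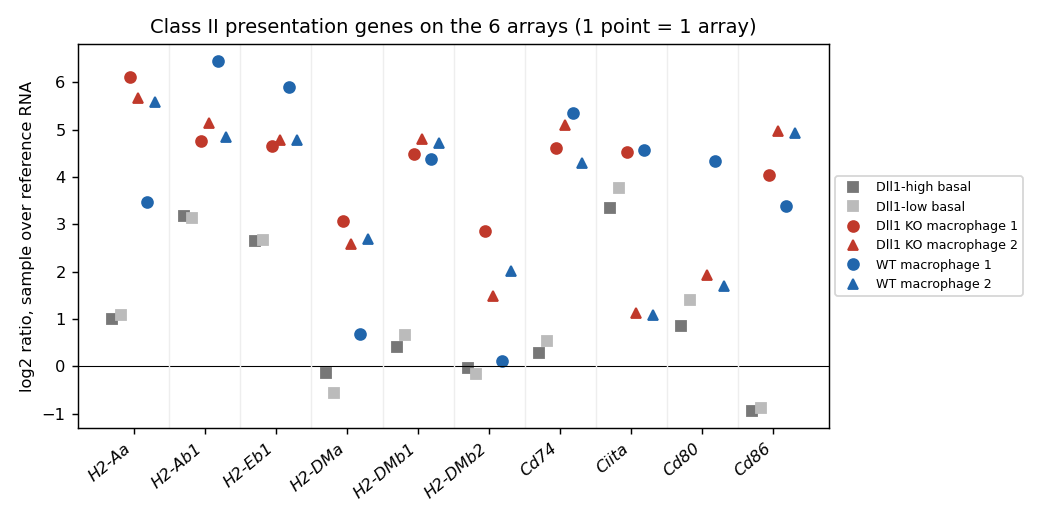
Log2 ratio of sample over reference RNA (vertical axis) for the 10 genes (horizontal axis), with 1 point an array: grey squares are CD24+ CD29-high basal cells, red KO macrophages and blue WT macrophages, circles replicate 1 and triangles replicate 2. The squares lie below the macrophage points in each gene but Ciita, and WT replicate 1 is the array farthest from the other macrophage arrays in H2-Aa, H2-Ab1, H2-Eb1, H2-DMa and Cd80, whose KO replicate 1 spot was left out.

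H2-Aa, the alpha chain of I-A, gave the largest difference between genotypes among the members after loess within each array. Its probe (mm9, chr17:34421285-34421344) read 1.00 in Dll1-high and 1.07 in Dll1-low cells, 6.10 and 5.68 on KO replicates 1 and 2, and 3.47 and 5.58 on WT replicates 1 and 2. Both KO arrays lay above both WT arrays, by a narrow margin over WT replicate 2. With the scanner software's processed signals they did not, as KO replicate 1 (6.19) lay below WT replicate 2 (6.58). The fitted difference between KO and WT was 1.37 (SE 0.81, limma adjusted p 0.999), made of 2.63 between the replicate 1 arrays and 0.10 between the replicate 2 arrays. Without WT replicate 1 it was 0.31, less than the KO arrays differed from each other. It was 0.38 with the processed signals and 1.01 with background subtraction, where H2-DMa gave more (1.20 and 1.28). After loess H2-Aa was the only 1 of 9 members with both KO arrays above both WT arrays, a pattern held by 6.66% of all genes, and no member had the opposite order, which 13.5% of genes had.

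H2-Ab1, the beta chain that pairs with H2-Aa, went the other way on the replicate 1 arrays. Its brighter probe (chr17:34406296-34406355) read 3.18 and 3.12 in Dll1-high and Dll1-low cells, 4.75 and 5.14 on the KO arrays, and 6.44 and 4.84 on the WT arrays. WT replicate 1 was the highest array and the other 3 macrophage arrays lay close together. KO minus WT was -1.69 within replicate 1 and 0.31 within replicate 2, or -0.69 over all 4 arrays (SE 0.65, limma adjusted p 0.999), and it turned to 0.11 without WT replicate 1. A second probe (chr17:34406305-34406363) read 2.85 and 2.96 on the CD24+ CD29-high arrays, 5.25 and 5.26 on the KO arrays and 6.36 and 4.93 on the WT arrays, with differences of -1.11 and 0.33. WT replicate 1 was highest by both probes, which differed in the lowest array, KO replicate 1 by the first and WT replicate 2 by the second.

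These 2 probes are not independent readings, since they overlap by 51 of their 60 bases and differ there at 1 base. The last 30 shared bases are shown because they carry that difference, which is in capitals (T51C, counted from the 5′ end of the brighter probe).
H2-Ab1 brighter probe: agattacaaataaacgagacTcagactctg
H2-Ab1 second probe: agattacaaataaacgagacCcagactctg

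H2-Eb1, the beta chain of I-E, followed H2-Ab1 closely. Its probe (chr17:34453075-34453134) read 2.64 and 2.66 in the CD24+ CD29-high fractions, 4.65 and 4.78 on the KO arrays and 5.91 and 4.78 on the WT arrays. Again WT replicate 1 was the high array and the other 3 lay within a narrow band. The difference was -1.26 within replicate 1 and 0.0007 within replicate 2, and -0.63 over all arrays (SE 0.50, limma adjusted p 0.999), and -0.06 without WT replicate 1. Over the 6 arrays, with each gene centred on its own mean, the root mean square distance of H2-Eb1 from H2-Ab1 was 0.196, rank 10 of 24740 genes, whereas the other members measured on all arrays lay between 1.11 and 1.85 from H2-Ab1, around the median of 1.16 over all genes. Among genes outside the members, the nearest to H2-Ab1 were D9Ertd720e (0.161), AK080285 (0.176) and 4 probes with no gene symbol (0.163 to 0.177).

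The unnormalized signals of these probes bear on that pattern. The Cy5 signal of H2-Ab1 was 5838 and 6572 on the CD24+ CD29-high arrays, 167236 and 152958 on the KO arrays, and 37242 and 168125 on the WT arrays, so WT replicate 1 was the dimmest macrophage array in the sample channel. Its Cy3 signal, which reads the same reference RNA on every array, was 472 and 585 on the CD24+ CD29-high arrays but 6289 and 6427 on the KO arrays and 2739 and 7386 on the WT arrays. The reference channel was thus 10.2-fold brighter on the mean macrophage array for H2-Ab1, and 8.05-fold for H2-Eb1, ranks 1 and 2 of 24749 genes. Over all genes the raw Cy3 signal was lower there, by a median of -0.88 (log2). Only 6 genes (0.0242%) had a Cy3 signal at least 2-fold higher on the macrophage arrays. The others were Cd83, Il4i1, Pirb and Csrp1, named here after their values were seen. Csrp1 differed from the rest in its Cy5 signal, which was lower on the macrophage arrays (6406.5 to 33591) than in Dll1-high (398924) and Dll1-low cells (300699).

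On the macrophage arrays the Cy3 signal of H2-Ab1 was 3.76% on KO replicate 1 and 4.2% on KO replicate 2 of its Cy5 signal and 7.35% and 4.39% for WT. Among the 67 genes whose Cy5 reached 100000 on a macrophage array, which include H2-Ab1 and H2-Eb1, 20.9% had a higher Cy3 signal there than on the CD24+ CD29-high arrays, against 1.64% of all genes. The part of this Cy3 signal in the ratios of H2-Ab1 and H2-Eb1 was not tested. H2-Aa showed a 1.16-fold brighter reference channel: its Cy5 signal was 20845 and 4638 for KO and 616 and 4211 for WT, and its Cy3 signal, between 56.5 and 292 on the macrophage arrays, was 94.5 and 121 on the others.

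**Figure D2:**
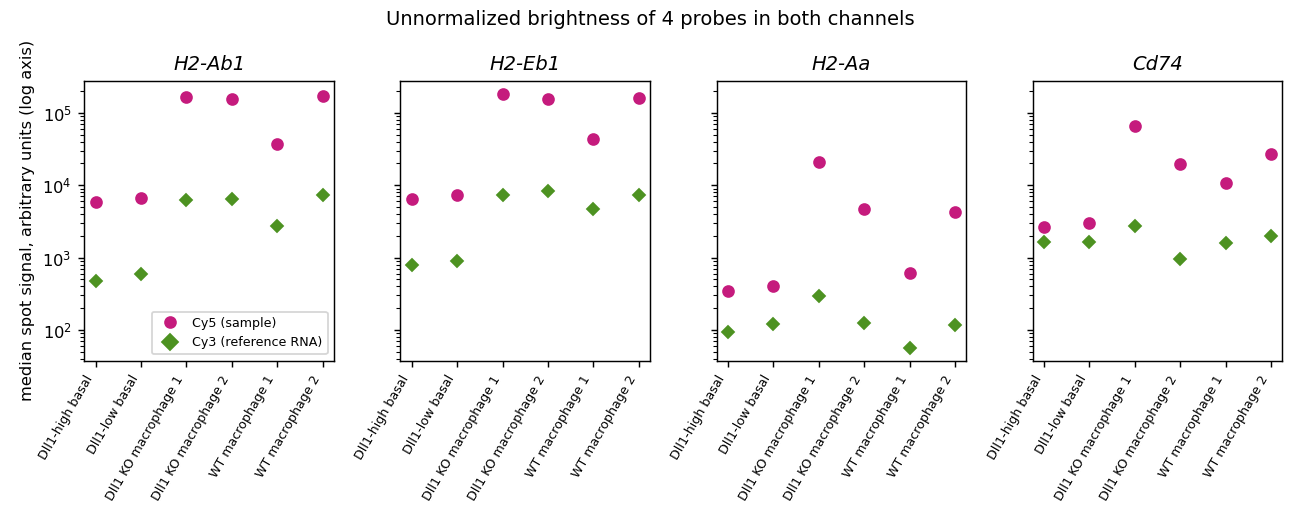
Median spot signal before any correction (vertical log axis, arbitrary units) of the H2-Ab1, H2-Eb1, H2-Aa and Cd74 probes on the 6 arrays (horizontal axis), with the sample channel Cy5 as pink circles and the reference channel Cy3 as green diamonds. The green points of H2-Ab1 climb from 472 and 585 to between 2739 and 7386 on the macrophage arrays although the reference RNA is the same, and WT replicate 1 is the lowest macrophage point in the sample channel of each of the 4 genes.

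The direction of the replicate 1 difference depended on the scaling for part of the genes. After loess within each array 5 of 9 members read higher in KO than in WT on the replicate 1 arrays, against 41.1% of all genes. With median centring it was 9 of 9 against 80.5%, and the whole gene set then moved by a median of 0.90, so that H2-Ab1 at 0.92 stood where the average gene did and H2-Eb1 at 1.39 only somewhat above it. With the Cy5 channel alone it was 9 of 9 against 51.7%, with H2-Ab1 at 1.27, H2-Eb1 at 1.22 and Cd74 at 1.13, and a median of 1.22 over the members and 0.04 over all genes. H2-Aa, H2-DMa and H2-DMb2 kept KO above WT under each of these 3 scalings, at 2.63 to 3.80, 2.35 to 2.78 and 2.74 to 3.68, whereas H2-Ab1, H2-Eb1, Cd74 and Ciita (-0.05 after loess, 1.83 and 0.47 with the others) changed sign. H2-Aa was smaller with the processed signals, at 0.64, and with background subtraction, at 1.84.

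Between the replicate 2 arrays the 9 members differed by at most 0.81 in either direction under these 3 scalings, but H2-DMb2 reached -1.84 with the processed signals. After loess none of the 9 was 2-fold apart in either direction, as were 0.885% of genes, and the largest differences were 0.81 for Cd74 and -0.54 for H2-DMb2. Between the replicate 1 arrays 3 of 9 members were at least 2-fold higher in KO (H2-Aa, H2-DMa and H2-DMb2), against 8.71% of genes, and 2 of 9 at least 2-fold lower (H2-Ab1 and H2-Eb1), against 18.1%. For scale, the SD of such a difference was taken over the spots of probes printed 10 times and well above background on both arrays. Its median was 0.19 for replicate 1 (193 probes) and 0.13 for replicate 2 (203 probes). Its 95th percentile was 0.39 for replicate 1 and 0.26 for replicate 2. After loess the replicate 1 differences of H2-Aa, H2-DMa, H2-Ab1, H2-Eb1, Cd74 (-0.73) and Cd86 (0.65) exceeded that percentile. Those of H2-DMb1 (0.11) and Ciita (-0.05) lay within the median. Within replicate 2 Cd74, H2-DMb2 and H2-Ab1 (0.31) exceeded the percentile. For replicate 1 the scale does not cover H2-DMb2, which was not well above background on WT replicate 1. The spread between animals is unknown.

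**Figure D3:**
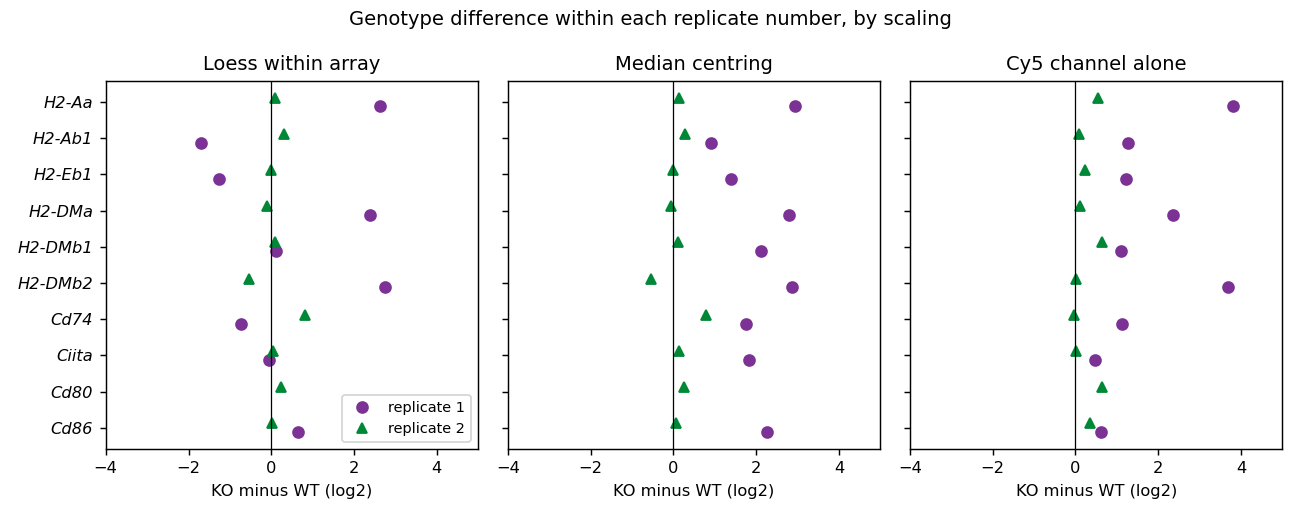
KO minus WT in log2 units (horizontal axis) for each gene (vertical axis), purple circles for replicate 1 and green triangles for replicate 2, under 3 scalings of the same arrays. The green points range from -0.54 (H2-DMb2) to 0.81 (Cd74) over the panels. The purple points of H2-Ab1, H2-Eb1 and Cd74 are left of 0 after loess (-1.69, -1.26 and -0.73), as is that of Ciita (-0.05). All of these are right of 0 with the other 2 scalings. Cd80 has no replicate 1 point because a spot was left out.

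The H2-DM genes encode the alpha (H2-DMa) and beta chains (H2-DMb1 and its neighbour H2-DMb2) of the editor that swaps the invariant chain's remnant for peptide. H2-DMa (chr17:34274300-34274863, an interval longer than its 60-base probe) read -0.14 and -0.56 in Dll1-high and Dll1-low cells, 3.06 and 2.58 on the KO arrays and 0.68 and 2.69 on the WT arrays. WT replicate 1 was the low array, and KO and WT overlapped. KO minus WT was 2.39 within replicate 1 and -0.11 within replicate 2, or 1.14 in all (SE 0.78, limma adjusted p 0.999) and 0.13 without WT replicate 1.

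H2-DMb2 (chr17:34284764-34284823) repeated that order, at -0.03 and -0.17 on the CD24+ CD29-high arrays, 2.85 and 1.48 on the KO arrays, and 0.11 and 2.02 on the WT arrays. Its Cy5 signal on WT replicate 1 was not well above background, so the 2.74 within replicate 1 is measured against a dim spot. Within replicate 2 the difference was -0.54, and over all arrays 1.103 (SE 0.87, limma adjusted p 0.999), or 0.15 without WT replicate 1.

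H2-DMb1 (chr17:34297109-34297168) read nearly alike on the macrophage arrays. It gave 0.41 and 0.67 in the CD24+ CD29-high fractions, 4.48 and 4.80 on the KO arrays and 4.37 and 4.72 on the WT arrays. The genotypes overlapped, and each replicate 2 array lay above the replicate 1 array of its genotype. The differences were 0.11 and 0.08 and the fitted value 0.09 (SE 0.35, limma adjusted p 0.999), with an interval of -0.86 to 1.04 at 95%, the narrowest of the members. Without WT replicate 1 the fitted value was -0.079. For the replicate 1 arrays the difference was 2.12 with median centring and 1.11 with the Cy5 channel alone, against 0.25 with the processed signals. H2-DMb1 and H2-DMb2 have similar sequences, and whether either probe also binds the other transcript was not tested.

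A second H2-DMb1 probe (chr17:34290109-34290168) was not well above background on any macrophage array, where it read 0.05 to 0.20. Its sequence is shown because of where it lies: it matched the RefSeq (GRCm38.p6) promoter window of H2-DMb1 at 58 of 60 bases, with 27 bases before the annotated transcription start and 33 from it onward (differences G17A and T46A, window base first, counted from the 5′ end of the probe). The bases before the start, with the differing base in capitals, are these.
H2-DMb1 second probe: actccctttaggttccAggatttggtt

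Cd74, the invariant chain, had the 4 macrophage arrays in no order of genotype. It read 0.27 and 0.54 in Dll1-high and Dll1-low cells, 4.61 and 5.09 on the KO arrays and 5.35 and 4.28 on the WT arrays, so the WT arrays spanned both KO arrays. The differences were -0.73 within replicate 1 and 0.81 within replicate 2, of opposite sign, and the fitted value was 0.04 (SE 0.51, limma adjusted p 0.999), or 0.57 without WT replicate 1. Its Cy5 signal was 65193 and 19861 for KO and 10831 and 27410 for WT, against 2648 and 3043 in Dll1-high and Dll1-low cells.

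Ciita, the transactivator that class II genes need, had a pattern unlike that of the other members. Its probe (chr16:10526568-10526627) read 3.35 and 3.77 in Dll1-high and Dll1-low cells, 4.52 and 1.13 on the KO arrays and 4.57 and 1.09 on the WT arrays. Both replicate 1 arrays were thus over 3 log2 units above both replicate 2 arrays, and the genotypes were alike within each number (-0.05 and 0.05). Among the 9 members measured on every array, only Ciita had macrophage arrays that did not all lie above the CD24+ CD29-high arrays. The fitted difference of -0.00 had an SE of 1.71 (limma adjusted p 1), the largest of the members, and it was 1.74 without WT replicate 1.

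Cd4, the coreceptor that binds class II, also read higher on the replicate 1 arrays of both genotypes, at 3.85 (KO) and 3.895 (WT) against 1.48 and 1.73. It read 2.22 and 2.78 in Dll1-high and Dll1-low cells. This split was not particular to Ciita and Cd4. In the same order, Itgam of the macrophage list read 4.15 and 5.42 against 1.25 and 1.14. Prdm1 read 2.50 and 3.19 against 0.87 and 0.81, and the B cell marker Cd22 2.11 and 4.16 against 0.52 and 0.45. These genes were named after their values were seen.

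Cd80 and Cd86, the costimulatory ligands that T cells read through CD28 and CTLA-4, differed in how well they were measured. Cd86 (chr16:36603961-36604020) read -0.94 and -0.89 in Dll1-high and Dll1-low cells, 4.03 and 4.96 on the KO arrays and 3.38 and 4.94 on the WT arrays. It showed the widest distance from the CD24+ CD29-high cells, with the lowest macrophage array 4.27 above the highest of them. KO minus WT was 0.65 within replicate 1 and 0.03 within replicate 2, and 0.34 in all (SE 0.70, limma adjusted p 0.999), with the sign turned to -0.44 without WT replicate 1.

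The 2 Cd80 probes did not give the same picture. The brighter (chr16:38486772-38486831) read 0.84 and 1.39 on the CD24+ CD29-high arrays, 1.93 on KO replicate 2, and 4.34 and 1.70 on the WT arrays, and its spot on KO replicate 1 was left out as an outlier (1.54 where such spots were kept). The difference, fitted on 3 arrays, was -1.09 (SE 1.35, limma adjusted p 0.999), and 0.23 without WT replicate 1. The dimmer probe (chr16:38479343-38479402) read 0.69 and 0.74 on the CD24+ CD29-high arrays, 2.36 and 2.13 on the KO arrays and 0.49 and 2.94 on the WT arrays, with differences of 1.87 and -0.81. WT replicate 1 was the highest macrophage array by the first probe and the lowest by the second. By the second probe it lay below both CD24+ CD29-high arrays.

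Across all genes tested, limma called 0 of 25042 between KO and WT at an adjusted p under 0.05 (0%), and 32 (0.128%) had an unadjusted p under 0.05, none of them a member. Adjusted p of the 10 members was 0.999 to 1. KO exceeded WT in both replicate numbers in 3 of 9 members (H2-Aa, H2-DMb1 and Cd86), against 18.7% of genes, and fell short of it in both in 0 of 9, against 30.2%. The members' median KO minus WT was 0.07, with 6 of 10 higher in KO, beside a median of -0.10 and 40.1% over all genes. Within replicate 2, KO was above WT in 7 of 9, against 47.4%. Within replicate 1 the medians were 0.11 and -0.16, and within replicate 2 they were 0.05 and -0.01. Leaving out WT replicate 1 gave a members' median of 0.14, and leaving out WT replicate 2 gave -0.11.

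Dll1-high and Dll1-low cells gave levels of these genes less than 2-fold apart, each on 1 array. The members' differences, Dll1-high minus Dll1-low, ran from -0.55 (Cd80) to 0.42 (H2-DMa), with a median of -0.06 beside -0.03 over 32150 genes. None of the 10 was 2-fold apart, as were 0.0933% of genes upward and 0.103% downward, and 3 of 10 read higher in Dll1-high cells (H2-Ab1, H2-DMa and H2-DMb2), against 44% of genes. For H2-DMb2 the Dll1-high signal was not well above background, so its difference of 0.14 is measured from a dim spot. The SD of such a difference over spots had a median of 0.11 (344 probes), and H2-Aa at -0.07, H2-Ab1 at 0.05, H2-Eb1 at -0.02 and Cd86 at -0.05 lay within it. No test was possible with 1 array a fraction. Low levels in these cells held for H2-DMa, H2-DMb2 and Cd86, at or below the reference RNA, but H2-Ab1, H2-Eb1 and Ciita read at least 2.64 above it.

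Class II promoters share an upstream module, the X box bound by RFX and the Y box bound by NF-Y, on which Ciita docks. RefSeq (GRCm38.p6) promoter windows of 250 bases before to 50 after the start were at hand for 6 of the 10 genes: H2-Aa, H2-Eb1, H2-DMa, H2-DMb1, H2-DMb2 and Cd80. The letters searched on both strands were AGNNAC directly followed by NNATG for X and TGATTGG for Y, set with these sequences in view, and they do not overlap each other. X letters were in 3.09% and Y letters in 7.82% of 32851 windows, and X followed by Y at 10 to 30 bases on the gene's strand in 6 windows (0.0183%): H2-DMb1, H2-Eb1, H2-Eb2, H2-Ob, Osbp and Gm32585.

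The stretches of 3 members are shown, on the plus strand, X and Y letters in capitals, because they let the 2 H2-DM beta chain genes be compared. H2-Eb1 lies at chr17:34305769-34305818 with 20 bases between the letters, H2-DMb1 at chr17:34153090-34153140 with 21, and H2-DMb2 at chr17:34145119-34145169 with 21 and 1 change in the X letters (G2T, searched letters first, counted from the first of them).
H2-Eb1: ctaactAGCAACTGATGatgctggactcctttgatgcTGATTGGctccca
H2-DMb1: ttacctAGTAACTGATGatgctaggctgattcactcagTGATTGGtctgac
H2-DMb2: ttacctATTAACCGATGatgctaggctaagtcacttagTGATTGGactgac
H2-Aa held Y letters, with 3 changes in the nearest X letters, and neither was found in the windows of H2-DMa and Cd80. Of the class II genes with X followed by Y at that spacing, H2-Eb1 and H2-Eb2 were highest and H2-Ob lowest on WT replicate 1 after loess, and H2-DMb1 was nearly level over the macrophage arrays.

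Other genes of the class II route gave the same mixture. Of 15 listed (other chains, H2-DO, cathepsins and surface regulators) 11 were tested, 7 read higher and 4 lower in KO, and 0 passed the test, with a median of 0.26. For this list and those that follow, the share to compare is the 40.1% of all genes that read higher in KO. H2-Eb2, a relative of H2-Eb1, had the largest difference at -1.31 (SE 0.74), reading 1.70 and 2.10 on the CD24+ CD29-high arrays, 3.53 and 4.16 on the KO arrays and 6.08 and 4.24 on the WT arrays. WT replicate 1 was again the high array. Ctss, the cathepsin that trims the invariant chain, differed by 0.97 (SE 0.87, 3 arrays, a KO replicate 1 spot being left out). H2-Ob, the beta chain of the H2-DM inhibitor H2-DO, read 2.98 and 2.32 on the KO arrays and 0.82 and 2.61 on the WT arrays, a difference of 0.94 (SE 0.73). Without WT replicate 1 the differences were -0.39 for H2-Eb2, 0.20 for Ctss and 0.042 for H2-Ob. H2-Ea-ps, the defective alpha chain gene, was not well above background on any of the 6 arrays.

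Of 21 transcription and signalling genes of the route 19 were tested, 11 higher and 8 lower in KO with a median of 0.13 and 0 past the test. Ifng, the cytokine that induces Ciita, had the largest difference at 1.37 (SE 1.03), with 4.18 and 2.78 on the KO arrays and 0.88 and 3.34 on the WT arrays. Nfyb, a subunit of the Y box factor, followed at -0.95 (SE 0.92) and Ifngr1, a receptor chain for interferon gamma, at 0.77 (SE 0.47). Each of these 3 owed its size to the replicate 1 arrays, where the differences were 3.30, -2.05 and 1.47, against -0.56, 0.15 and 0.06 within replicate 2. Without WT replicate 1 the fitted values were 0.14, 0.30 and 0.31, with the sign of Nfyb turned.

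Of 15 other costimulatory and adhesion genes 11 were tested, 7 higher and 4 lower, with a median of 0.35 and 0 past the test. The largest were Icam1 (0.90, SE 0.75), Cd200r1 (0.89, SE 1.01) and Pdcd1lg2 (0.73, SE 0.71), which turned to -0.075, -0.48 and -0.13 without WT replicate 1. Of 7 T cell partners of these molecules 5 were higher and 2 lower, with a median of 0.27 and 0 past the test, and Icos led at 1.17 (SE 0.88), followed by Cd28 at 0.67 (SE 0.44) and Pdcd1 at -0.55 (SE 0.47), or 0.014, 0.26 and -0.29 without WT replicate 1. In the class I route, which loads peptides made in the cytosol, 18 of 18 were tested, 9 on each side, with a median of -0.00 and 0 past the test. Its largest were Tap1, a chain of the peptide pump, at 1.13 (SE 0.69), Psmb9 at -0.64 (SE 0.75) and Psmb8 at 0.62 (SE 0.37), or 0.31, -1.12 and 0.37 without WT replicate 1.

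Several cell types make class II, so markers of each were read beside the members. Macrophage markers were well above background for 16 or 17 of 17 genes on each macrophage array. Their medians were 3.89 and 3.16 for KO and 2.18 and 3.15 for WT. Summed levels here are of the Cy5 channel alone after quantile normalization. For macrophage markers they were 238151 and 204450 for KO and 116064 and 154870 for WT. Of 16 tested 13 read higher in KO (median 0.52, 0 past the test), against 40.1% of all genes. The largest were Lyz2 (1.84, SE 1.14), C1qa (1.57, SE 1.01) and Adgre1, which encodes F4/80 (1.43, SE 0.81). Without WT replicate 1 these 3 were 0.33, 0.19 and 0.37. The members' summed level had the same lowest array: 546386 and 530151 for KO and 228144 and 474544 for WT over 9 genes. This sum is weighted to the brightest members, H2-Ab1 and H2-Eb1, whose loess ratios were highest on WT replicate 1. The members' median loess ratio was 4.36 on that array, against 4.50 to 4.79 on the other macrophage arrays, so the low sum depends on the scaling. Fewer cells of a type and less RNA per cell cannot be told apart in these bulk samples.

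Dendritic cell markers were also present, at medians of 1.71 and 2.01 for KO and 2.35 and 2.57 for WT. Their summed levels were 117790 to 176746 for KO and 167257 to 180875 for WT. In Dll1-high and Dll1-low cells the sums were 73020 and 105514. Ccr7, a receptor of migrating dendritic cells, read 7.29 to 8.15 on the macrophage arrays, a value named after it was seen. Of 13 tested 6 were higher and 7 lower in KO with 0 past the test, and Clec10a led at -3.74 (SE 2.25) through 1 array, KO replicate 2, at 0.18 against 6.61 to 7.18 on the other 3. The next largest were Zbtb46 (0.53, SE 0.32) and Mgl2 (-0.48, SE 0.59). Without WT replicate 1 these 3 were -3.69, 0.43 and 0.22.

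B cell markers were tested for 9 of 11 on the array, 7 higher and 2 lower in KO with 0 past the test, with medians of 2.11 and 0.83 for KO and 0.86 and 0.87 for WT. Monocyte markers (7 tested, 6 higher) had medians of 4.05, 3.82, 3.26 and 4.19 and T cell markers (7 tested, 6 higher) 1.47, 0.76, 0.72 and 0.77, in the order KO replicate 1, KO replicate 2, WT replicate 1, WT replicate 2. Fibroblast markers were highest on WT replicate 1 (0.50 against -1.15 to -0.51), with 1 of 12 higher in KO, against 40.1% of all genes. That count rests on WT replicate 1, as their median KO minus WT was -1.60 within replicate 1 but 0.37 within replicate 2. Endothelial markers were lower in KO in 12 of 12 (medians 2.42 and 3.13 against 3.50 and 3.93), so 0 were higher, against 40.1% of all genes. Their median difference was -0.95 within replicate 1 and -0.75 within replicate 2. The largest was Cdh5 (-2.12, SE 0.42, and -2.47 without WT replicate 1), and 0 of either list passed the test. The part of each of these cell types in the members' values was not tested.

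**Figure D4:**
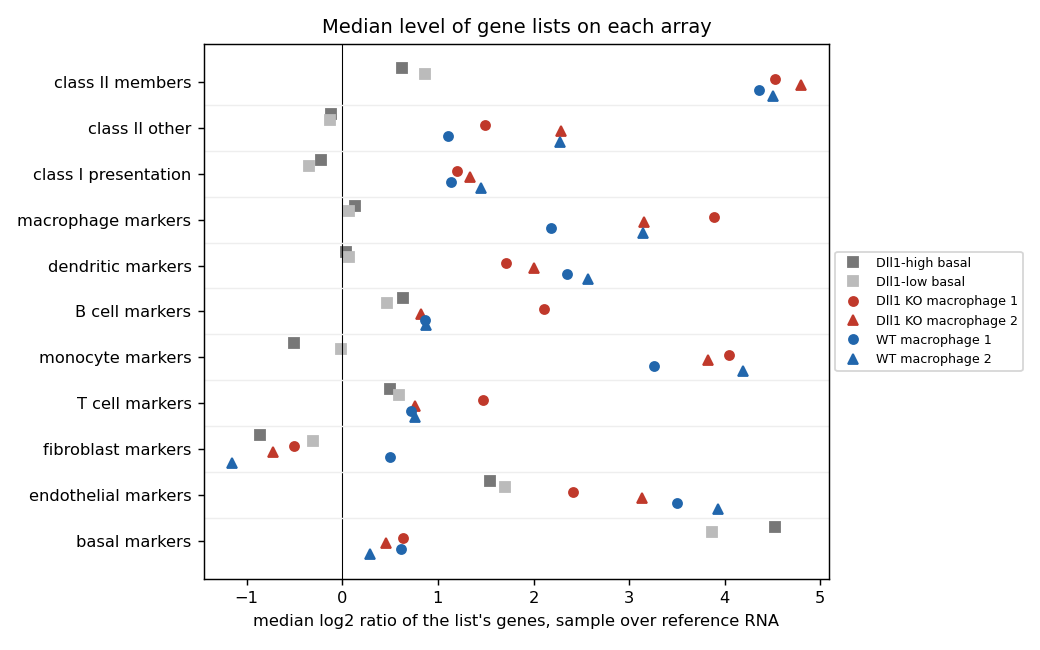
Median log2 ratio over the genes of each list (horizontal axis) on each array, lists on the vertical axis, with grey squares for CD24+ CD29-high basal cells, red for KO and blue for WT macrophages, circles for replicate 1 and triangles for replicate 2. The class II members lie near 4.5 on all 4 macrophage arrays, macrophage markers are lowest on WT replicate 1 (2.18), and basal markers are high only on the CD24+ CD29-high arrays (4.52 and 3.86).

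In the CD24+ CD29-high cells basal markers had medians of 4.52 and 3.86, against 0.29 to 0.63 on the macrophage arrays, and macrophage markers had medians of 0.13 and 0.07. Csf1r and Adgre1 read below the reference RNA there (-0.82 and -0.47, -2.56 and -2.46). Dendritic markers stood at 0.04 and 0.07 and B cell markers at 0.63 and 0.47.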

How the data were processed

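Gene expression was measured on 2-colour arrays (6 samples, 1 array each). Per the file headers, Agilent Feature Extraction 11.0.1.1 (CD24+ CD29-high cells) or 12.0.2.2 (macrophages) made the scanner files, while the submitters' processing notes name 11.0. Per the file headers, the spot and background signals are unprocessed intensity values, the processed signals are background-subtracted and dye-normalized intensity values, and LogRatio is a log10 ratio. The values the authors deposited as a table are log2 ratios, sample over reference, not centred per gene, with column medians of -0.117 to 0.139. It followed the scanner log ratio with slopes of 1.00 to 1.01 and equalled the log2 ratio of the processed signals within 3.1e-06. Probe coordinates are mm9, per the file headers.

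From median signals, background was corrected by normexp (offset 50) and ratios were normalized by loess within arrays, with control and outlier spots at weight 0 and outlier spots (170 to 500 an array) then left out (limma 3.58.1, R 4.3.3). For the Cy5 channel alone, the background-corrected Cy5 signals were quantile-normalized across the 6 arrays. Spots were averaged per probe, and the probe of highest mean signal stood for a gene. Names came from accessions matched to RefSeq (27509 probes) or the design (28172), members from the design alone. KO and WT were compared with limma's lmFit and eBayes over genes whose Cy5 passed the scanner's background criterion on 2 or more of the 4 arrays, two-sided, Benjamini-Hochberg at 0.05. A spread from 2 arrays a group limits precision. The fit was run on simulated data with known differences, where calls had to be recovered only at a spread far below the measured one. That run does not show what the fit can call at the measured spread. All 10 members are named, from each list up to 3 genes of largest difference, and the 6 genes most like H2-Ab1. The members and lists were chosen with earlier results of these data known, and nothing here is independent support for them. List genes not found under their name were not analysed here. Some items are not reported here.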

Additional observations from a re-analysis of the deposited data

How the results depend on the processing

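No member was called under the main settings or any alternative run (0 of all genes called in each), and the number of genes with an unadjusted p under 0.05 went from 9 without KO replicate 1 to 4558 without WT replicate 2. The members' median KO minus WT was 1.14 with median centring and 0.70 with the Cy5 channel alone, beside 0.47 and 0.01 over all genes, and -0.11 to 0.27 when 1 array was left out. The members' median Dll1-high minus Dll1-low was -0.26 with the Cy5 channel alone. H2-Ab1 turned to 0.60 and H2-Eb1 to 0.69 with median centring, and to 0.68 and 0.72 with Cy5 alone. Ciita turned to 0.051 with the processed signals and with the authors' table, which hold the same ratios, and to 0.071 with background subtraction, 0.98 with median centring and 0.24 with Cy5 alone. Leaving out arrays gave H2-Aa 0.31 to 2.42, H2-Ab1 -1.49 to 0.11, H2-Eb1 -1.19 to -0.06, H2-DMa 0.13 to 2.14, H2-DMb1 -0.079 to 0.27, H2-DMb2 0.15 to 2.06, Cd74 -0.49 to 0.57, Ciita -1.74 to 1.74, Cd80 -2.41 to 0.23 and Cd86 -0.44 to 1.11. The lone array of such a fit is assumed to vary like the others. With a replicate block, 0 genes were called, 153 had an unadjusted p under 0.05, the members' median was 0.16, and Cd80 turned to 0.23. Replicate 1 minus replicate 2 correlated between KO and WT over 24749 genes at r = 0.595, but with only this number in common and 2 pairs the samples are not known to be paired. The cause of these changes was not tested. Signal over background limits H2-DMb2 on WT replicate 1 and the second H2-DMb1 probe on all macrophage arrays.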
